A study of Drosophila melanogaster with 3 samples.

Results

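Peaks of CG18764 at divergent protein-coding promoters were examined, where a pair of protein-coding genes on opposite strands start close together and are read away from each other. A peak belonged here when its summit, the position of highest signal, lay within 500 bp of a protein-coding transcription start site (TSS). The nearest such TSS also had to have an opposite-strand protein-coding TSS upstream of it within 1000 bp. Of the 3754 optimal peaks, 859 (22.9%) met this rule. They made up 45.4% of the 1891 peaks at protein-coding promoters, and the other 1032 promoter peaks lay at single-direction promoters. Positions, not signal, chose them among the optimal peaks. The optimal list itself was made from the same 3 replicates that are compared below.

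The assay was chromatin immunoprecipitation with sequencing (ChIP-seq) in Drosophila melanogaster. Whole embryos of both sexes, collected at 0 to 16 h, carried a transgene that makes CG18764 with green fluorescent protein (GFP) at its C terminus, and an antibody against GFP was used. The 3 biological replicates form 1 group, with no control samples among the data analysed here, so no treatment or genotype was compared. Since whole embryos were used, a peak cannot be assigned to a cell type, and the labels do not say which promoter drives the fusion.

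CG18764 belongs to the ZAD proteins, a family of zinc-finger proteins that is large in insects. Their N-terminal zinc-finger-associated domain pairs proteins with each other, and their C2H2 zinc fingers bind DNA. In the compact fly genome many housekeeping genes, which every cell uses, are arranged head to head and share 1 stretch of upstream DNA. Such promoters often hold the DNA replication-related element (DRE), the site of the factor DREF, or the site of the factor M1BP, whereas developmental genes more often carry GAGA or TATA elements.

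The DNA under the highest of these peaks is shown first, because the results below turn on the stretch between the paired start sites. Of the 12 peaks with the lowest mean rank over the replicates, rank 1 being the highest signal, 8 were considered and 7 are shown. At the eighth, Chro, the bases under the summit are transcribed, and the sequence at the other 4 is not reported here. The sequences are from the RefSeq copy of dm6, plus strand, 5′ to 3′. Capitals mark matches on either strand to 7 short motifs that are spelled out with the sequence results. For pairs with start sites up to 300 bp apart the run is the whole stretch between the TSS. For Ugalt and CG9915 it is 100 bases beside the TSS that include the summit. No base shown lies in an annotated exon. The summit is base 33 for Ugalt, 31 for eIF2Balpha, 127 for Art3, 233 for Vps13D, 55 for CG1233, 48 for CG9915 and 113 for CHMP2B.
Ugalt and eIF2Bbeta, chrX:2703853-2703952: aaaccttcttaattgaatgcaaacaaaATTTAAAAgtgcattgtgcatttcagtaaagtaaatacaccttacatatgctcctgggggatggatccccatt
eIF2Balpha and Vps13B, chr3R:29935889-29935977: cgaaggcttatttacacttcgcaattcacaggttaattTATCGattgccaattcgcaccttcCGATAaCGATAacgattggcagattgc
Art3 and mRpS10, chr3R:15229409-15229664: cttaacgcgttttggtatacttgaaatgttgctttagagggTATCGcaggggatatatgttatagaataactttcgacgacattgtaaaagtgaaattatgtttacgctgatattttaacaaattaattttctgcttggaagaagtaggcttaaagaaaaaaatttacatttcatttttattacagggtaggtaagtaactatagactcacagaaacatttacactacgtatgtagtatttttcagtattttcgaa
Vps13D and CG10973, chr3L:12754775-12755048: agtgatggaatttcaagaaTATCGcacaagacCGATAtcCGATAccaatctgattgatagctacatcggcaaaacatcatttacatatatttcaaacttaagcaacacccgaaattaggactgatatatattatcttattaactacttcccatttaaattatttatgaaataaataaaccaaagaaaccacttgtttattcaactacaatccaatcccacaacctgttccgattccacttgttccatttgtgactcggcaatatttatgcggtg
CG1233 and Cdc5, chr3L:361384-361471: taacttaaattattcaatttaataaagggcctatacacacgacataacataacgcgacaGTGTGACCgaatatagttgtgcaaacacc
CG9915 and SWIP, chrX:16313139-16313238: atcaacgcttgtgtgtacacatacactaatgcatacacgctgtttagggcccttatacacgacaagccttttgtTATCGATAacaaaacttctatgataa
CHMP2B and Tcs5, chr3L:5139396-5139618: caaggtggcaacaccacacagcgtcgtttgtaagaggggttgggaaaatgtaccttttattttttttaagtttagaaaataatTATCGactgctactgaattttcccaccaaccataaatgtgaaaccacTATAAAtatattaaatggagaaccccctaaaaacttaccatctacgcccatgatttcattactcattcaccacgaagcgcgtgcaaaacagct

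No motif was in all 7 runs. The runs at eIF2Balpha and Vps13D each hold 3 copies of CGATA, counting its reverse complement TATCG, and those at Art3 and CHMP2B hold 1, the latter with a TATA box. The run at CG9915 holds a full DRE, that at CG1233 an M1BP core, and that at Ugalt the letters ATTTAAAA. GC content ranged from 30.1% between Art3 and mRpS10 to 41.6% between eIF2Balpha and Vps13B.

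Before the replicates are compared, replicate 1 has to be set apart. Its whole relaxed list, of 30000 peaks like the others, held 1593 summits at divergent promoters against 2571 and 2817 in replicates 2 and 3. At single-direction promoters it held 3858 against 5716 and 5837. Sequencing depth is unknown, and its part in this difference was not tested. Most values below therefore use the 3754 highest peaks of each replicate, the length of the optimal list, where replicate 1 held 815, replicate 2 held 854 and replicate 3 held 873 summits at divergent promoters.

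Divergent promoters carried CG18764 peaks more often than single-direction promoters. The annotation held 2667 divergent gene pairs, made of 5052 of the 13945 protein-coding genes. A peak was present at 30.1% of these pairs in replicate 1, at 31.6% in replicate 2 and at 32.1% in replicate 3. Of the 8893 genes with single-direction promoters, 9.32%, 9.37% and 9.79% had one. The replicate values did not overlap, and the difference was 21.8 ± 0.890 percentage points (SD, n = 3; two-sided exact sign-flip permutation test, p = 0.25, the smallest that 3 replicates allow). In the optimal list 857 pairs (32.1%) and 1657 genes of pairs (32.8%) had a peak, against 847 single-direction genes (9.52%). A peak counts for both genes of a pair here. Credited only to the gene whose TSS is nearest the summit, it was at 16.9% ± 0.624 of the genes of pairs, against 9.49% ± 0.261 of single-direction genes (SD, n = 3; exact permutation p = 0.25). The labels name the replicates as biological, and no other source of the spread between them is given.

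A pair offers more start sites than a single gene, so summits were also counted per base of promoter. Bases within 500 bp whose nearest TSS was divergent came to 3499258, and those at single-direction TSS to 11833818. Divergent promoters held 23.3, 24.4 and 24.9 summits per 100 kb in the 3 replicates, and single-direction promoters 8.43, 8.69 and 9.13. Their ratio was 2.77 ± 0.0395 (SD, n = 3; exact permutation p = 0.25 for the difference). In the last 150 bases before the TSS the densities were 87.9 ± 3.92 and 19.5 ± 1.34 per 100 kb (SD, n = 3), a ratio of 4.51 ± 0.216. Over the first 500 bases after the TSS they were 5.89 ± 0.955 and 2.55 ± 0.482, so the gap between the promoter kinds was wider upstream. Whether each promoter is active in these embryos was not measured.

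**Figure D1:**
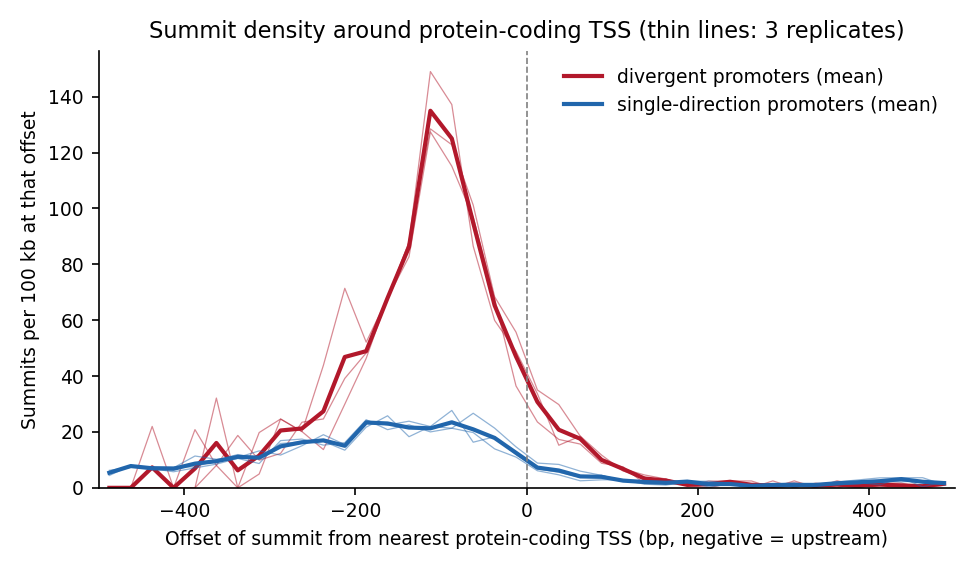
Summits per 100 kb of promoter (vertical axis) at each offset from the nearest protein-coding TSS in bp (horizontal axis, negative upstream), in bins of 25 bp. Thin lines are the 3 replicates and thick lines their means. Divergent promoters (red) reach 135 per 100 kb at 125 to 100 bp upstream, where single-direction promoters (blue) stay near 20.

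The summits sat in the shared stretch itself. In the optimal list 727 of 859 (84.6%) lay between the paired start sites, and 132 lay outside. In the replicates' own lists this share was 84.9%, 83.3% and 80.4% (82.9% ± 2.27, SD, n = 3). The median summit was 84 bp upstream of its nearest TSS, with quartiles at −120.5 and −30 bp. At single-direction promoters, where no second gene bounds the stretch, most summits were upstream of the TSS too. Their median was 150 bp upstream and the quartiles were −266.25 and −57 bp. A summit within 500 bp of both TSS was the rule, in 738 peaks (85.9%), and 388 (45.2%) were within 200 bp of both. Such a peak cannot be assigned to 1 gene of the pair. Density at divergent promoters was highest at 125 to 100 bp upstream, at 135 ± 12.2 summits per 100 kb (SD, n = 3), and it had fallen to 30.8 ± 6.26 in the 25 bases after the TSS.

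How often a pair had a peak differed with the distance between its start sites. Pairs were put into 5 classes, of up to 100, 100 to 200, 200 to 300, 300 to 500 and 500 to 1000 bp, each without its lower bound. Of the 542 pairs 200 to 300 bp apart, 41.0%, 46.1% and 45.4% had a peak in the 3 replicates (44.2% ± 2.79, SD, n = 3). Pairs 300 to 500 bp apart followed with 34.9% ± 0.912. Pairs up to 100 bp apart (26.0% ± 3.50), 100 to 200 bp apart (26.8% ± 2.26) and 500 to 1000 bp apart (23.0% ± 0.820) were lower. Every replicate value of the 200 to 300 bp class was above every value of the other classes. Values of the shorter 2 classes overlapped each other. In the optimal list the same class had 254 of 542 pairs with a peak (46.9%), against 106 of 429, 97 of 357, 247 of 667 and 153 of 672 in the others, in order of distance. All of these lay above the 9.52% of single-direction genes.

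**Figure D2:**
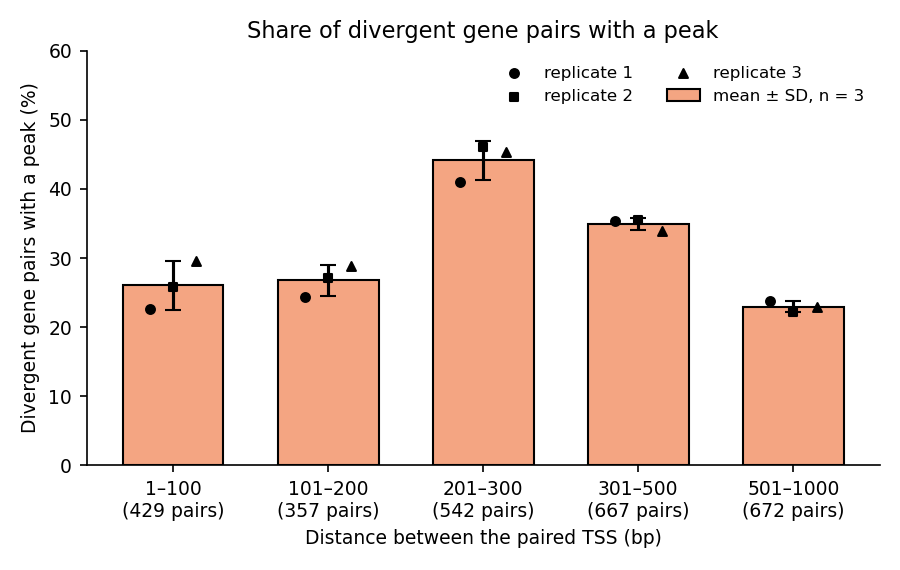
Percent of divergent gene pairs with a peak (vertical axis) by the distance between their TSS in bp (horizontal axis, with the number of pairs). Bars are means of 3 replicates with SD, and symbols are the replicates. The class of 200 to 300 bp stands highest, at 44.2%.

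The position of the summit changed with that distance. In pairs 200 to 300 bp apart the summit sat close to the middle, at a median of 36.5 bp from the midpoint and 92 bp from the nearest TSS, and 92.3% of summits lay between the TSS. In wider pairs the summit stayed about as far from 1 TSS and left the midpoint. Its median distance to the nearest TSS was 112 bp in pairs 300 to 500 bp apart and 114.5 bp in pairs 500 to 1000 bp apart, while its distance to the midpoint rose to 76 and 243.5 bp. Summits were classed by the distance between their nearest TSS and its partner, and pairs above by the shortest distance between any start sites of the genes, so the numbers in a class differ (78 summits and 106 pairs with a peak up to 100 bp). With start sites up to 100 bp apart 32.1% of summits lay between the TSS, and with 100 to 200 bp 68.7%. The replicates' own lists gave distances to the nearest TSS of 84.5 ± 3.50, 108 ± 4.51 and 114 ± 14.8 bp (SD, n = 3) for the wider 3 classes and 38.0 ± 3.61 and 38.3 ± 4.51 bp for the shorter 2. Inside the stretch a summit can be no farther from its nearest TSS than the midpoint is. That bounds distances in pairs 200 to 300 bp apart too, where most summits lay inside. In pairs up to 100 bp apart most summits lay outside, where this bound does not apply.

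**Figure D3:**
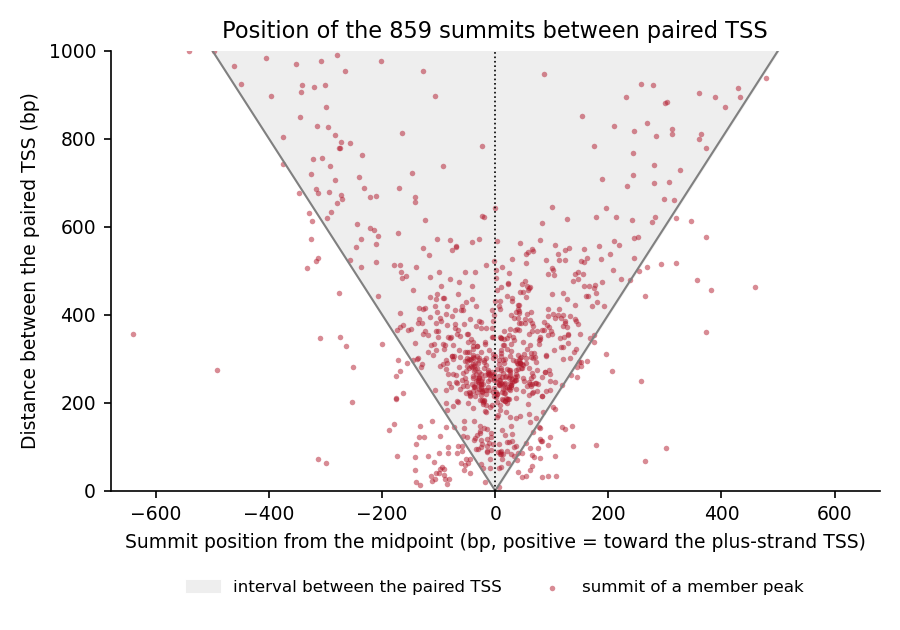
Each point is 1 of the 859 summits, placed by its distance in bp from the midpoint of its TSS pair (horizontal axis, positive toward the plus-strand TSS) and by the distance between the TSS in bp (vertical axis). The grey wedge is the stretch between the TSS. Points crowd near the midpoint at 200 to 300 bp and follow the edges of the wedge in wider pairs.

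The members spanned distances between start sites from 8 to 1000 bp, with a median of 307 bp, and quartiles at 229 and 455.5 bp. Signal was highest in the same class. Median optimal rank was 1308 for the 200 to 300 bp class and between 1607 and 1892 in the others. In the replicates it averaged 1244 ± 160 (SD, n = 3), against 1660 ± 148 for up to 100 bp, 1638 ± 245 for 100 to 200 bp, 1665 ± 153 for 300 to 500 bp and 1891 ± 278 for 500 to 1000 bp. Peaks with a summit in the highest 3754 of all 3 replicates were 68.8% of that class and 52.3% to 56.4% of the others. The optimal list was made from these replicates, so these shares are no independent check.

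Strength and reproducibility were then set beside those of peaks at single-direction promoters. The optimal list was made from these same replicates, so finding its peaks again in them is no independent measure of reproducibility. This limit holds for both promoter kinds. A summit within 100 bp was found among the highest 3754 peaks of all 3 replicates for 506 members (58.9%) and for 609 single-direction peaks (59.0%), where the share over all 3754 optimal peaks was 56.8%. Replicate by replicate, 76.7%, 85.0% and 80.8% of the members were found, and 75.8%, 82.8% and 82.5% of the single-direction peaks. The difference was 0.501 ± 1.99 percentage points (SD, n = 3; exact permutation p = 0.75). Among the highest 1000 optimal peaks, sought in the highest 1000 of each replicate, it was −6.51 ± 3.25 (exact permutation p = 0.25). Members were found less often there in each replicate. Ranks were taken from the whole replicate lists, and peaks without a summit within 100 bp there were left out. In replicate 1 this kept 87.1% of members and 90.8% of single-direction peaks. Median ranks were 1352.5, 1636 and 1696 for members and 1594, 1672 and 1669 for single-direction peaks, a difference of −83.5 ± 140 ranks (exact permutation p = 0.5). It was −4.50 without replicate 1, −201 ± 97.9 with the opposite TSS within 500 bp, −151 ± 122 with summits within 1000 bp of a TSS and −135 ± 79.2 with gene 5′ ends only. In the last 3 members ranked higher in every replicate (exact permutation p = 0.25, the smallest possible), while in the highest 1000 peaks it was 12.7 ± 67.3. Median summit displacement between the optimal and the whole replicate lists was 20, 11 and 11 bp for the members found and 18, 10 and 13 bp for the others.

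Divergent promoters were more frequent among the strongest peaks of each replicate than lower in its list, and so were single-direction promoters. Divergent promoters held 28.7% ± 3.19 of the highest 500 peaks, 26.0% ± 0.200 of the next 500 and 19.5% ± 2.85 of the ranks after 2000 up to 3754 (SD, n = 3). At ranks after 10000 up to 30000 the share was 4.13% ± 1.85. Single-direction promoters went from 34.9% ± 1.03 of the highest 500 to 13.8% ± 3.48 of those last ranks. As a share of promoter peaks alone, those at divergent promoters kept 43.7% to 46.3% down to rank 3754 and then dropped to 32.1% ± 3.02 and 22.2% ± 4.38. Of the highest 10, 25, 100 and 500 optimal peaks, 4, 11, 40 and 146 were members.

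In the whole replicate lists, 111 members had no summit within 100 bp in replicate 1, 40 in replicate 2 and 32 in replicate 3. Within 500 bp the numbers were 68, 20 and 1. Among the 146 members of optimal rank 500 or higher, 3, 3 and 1 were missing. Over the whole lists members were found less often than single-direction peaks in every replicate, at 87.1%, 95.3% and 96.3% against 90.8%, 96.5% and 96.8%. The missing peaks of high rank were chosen for naming after their values were seen. Among them were the peaks at Zaf1 and CG14711, CG3792 and Gmd, and Lamtor3 and fws, which ranked between 90 and 304 in replicates 2 and 3 and whose nearest summits in replicate 1 were 3262 to 5699 bp away. Those at RpL14 and Nelf-E, Sptz and ninaG, and EMC6 and Hr96 were missing from replicate 2, where the nearest summits were 809, 11987 and 2520 bp away. The summit at FucTB and scat was 124 bp away in replicate 3. A gap of this kind in 1 list, at a site that ranked high in the other 2, does not tell whether reads were low there.

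The 12 peaks with the lowest mean ranks are given next. The peak between Ugalt, the UDP-galactose transporter of the Golgi, and eIF2Bbeta, a subunit of the exchange factor that reloads the initiation factor eIF2 with GTP, ranked 5, 4 and 3 in replicates 1, 2 and 3. Its summit at X:2703885 was 33 bp upstream of Ugalt and 686 bp from eIF2Bbeta, the start sites being 719 bp apart. The peak between eIF2Balpha, another subunit of that factor, and Vps13B, a lipid-transfer protein, ranked 18, 6 and 6, with its summit at 3R:29935919, 31 and 59 bp from the TSS. The single highest member, at CG3253 and CG4049, ranked 3, 2 and 4.

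Of the 12, 2 lay beside a gene of the mitochondrial ribosome. Such genes made up 58 of the 5052 genes of divergent pairs. In the optimal list 22 of these 58 (37.9%) had a peak, against 32.8% of all genes of divergent pairs. Whether 2 of 12 is an excess was not tested. The peak between Art3, an arginine methyltransferase, and mRpS10 ranked 9, 11 and 22, with its summit at 3R:15229535, 127 and 130 bp from the TSS. The peak between mRpL41 and CG8079 ranked 13, 13 and 26, and its summit was 145 bp from the mRpL41 TSS. Outside the 12, the highest peak of pairs 300 to 500 bp apart lay between CenG1A, a GTPase-activating protein, and mRpS23 and ranked 35, 24 and 36. Its summit was 105 bp from the nearest TSS.

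The peak at Chro, which encodes the chromodomain protein Chromator, and Ssl1, a subunit of the general transcription factor TFIIH, ranked 7, 15 and 17. Its summit at 3L:22878896 was 88 bp downstream of the Chro TSS, in annotated exon and outside the shared stretch, the only such case of the 12. The peak between enok, a histone acetyltransferase, and gek, a kinase that binds Cdc42, ranked 6, 18 and 18. The peak between CG1233 and Cdc5, a splicing factor, ranked 17, 19 and 10.

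The peak between Vps13D, a relative of Vps13B, and CG10973 ranked 22, 12 and 11. The peak between CHMP2B, a component of the ESCRT-III membrane-cutting complex, and Tcs5, which takes part in tRNA modification, ranked 20, 41 and 24, with its summit 111 and 113 bp from the TSS and so at the middle. DUBAI, a deubiquitinase, and Tmem18 (8, 17 and 14) and CG9915 and SWIP (15, 23 and 16) complete the set. None of the 12 ranked below 41 in any replicate. They were picked by their mean rank over these same replicates, so low ranks in each largely follow from that choice.

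**Figure D4:**
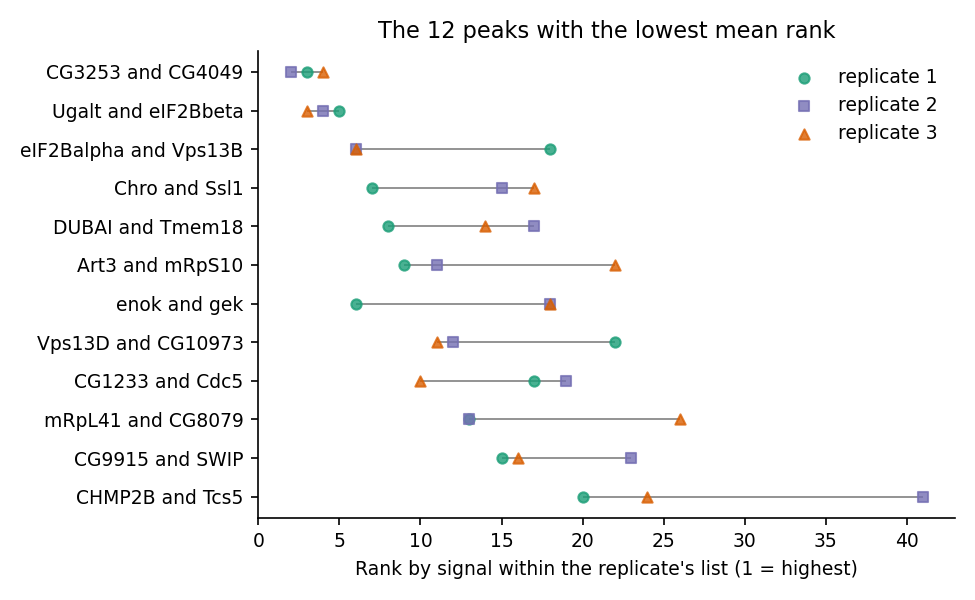
Rank of the 12 peaks with the lowest mean rank in each of the 3 replicates (horizontal axis, 1 is the highest signal within that replicate's list), by gene pair (vertical axis). Ranks run from 2 to 41, and the peak at CG3253 and CG4049 ranks between 2 and 4. The peaks were chosen by these same ranks.

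A pair could hold more than 1 summit. Here a pair is 1 label for the start sites of its peak, so a start site shared by several genes counts once, whereas the 857 pairs above count each combination of genes. Of 806 such labels, 53 held 2 entries of the optimal list, each with its own summit, and none held more. The 2 entries need not be separate peaks. At FucTB and scat both summits lay in 1 called interval, from 2L:9430948 to 9431500. So did those at Mic26-27 and CG5916, and those at CG12974 and pzg. How many of the 53 share an interval was not counted. In 35 of these 53 the summits were nearest to different genes of the pair. The median distance between summits was 204 bp, with a lowest value of 199 bp. Whether the peak calling set a least spacing is unknown, so 2 summits need not be 1 site per gene. FucTB, a fucosyltransferase gene, and scat had summits of optimal ranks 84 and 97 at 212 bp from each other. SC35, a splicing factor, and eRF3, a translation termination factor, had summits of ranks 122 and 268 at 220 bp. These 2 pairs were chosen after their values were seen.

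Genes were then counted by function, each gene of a pair being credited with the pair's peak, also where the summit was nearer to its partner. Over all genes of divergent pairs 32.8% had a peak in the optimal list. Cytosolic ribosomal protein genes stood far above this, with 42 of 53 (79.2%), among them RpS27 (mean rank 72.0 ± 16.1, SD, n = 3) and RpL7 (106 ± 9.07). For RpL39 the higher peak of the pair (170 ± 111) had its summit 10 bp downstream of the Rap2l TSS, and the peak nearest RpL39 itself had optimal rank 2787. Among the lists of 20 or more divergent genes, Mediator subunits followed with 10 of 21 (47.6%), including MED15 and MED30. Both of these summits were nearer to the partner gene, CG4297 or Rev1, and the MED15 TSS was 571 bp away. Next came aminoacyl-tRNA synthetases, which charge tRNAs, with 11 of 24 (45.8%), including IleRS and SerRS. At SerRS the summit was 11 bp from its TSS and 3 bp from that of CG17260. Vesicle trafficking genes had 31 of 72 (43.1%) and translation initiation factors 9 of 21 (42.9%). Chromatin regulators had 21 of 51 (41.2%), including pzg, whose highest peak was nearest CG12974. Credited only to the gene of the nearest TSS, a peak was at 17.1% of all genes of divergent pairs. Vesicle trafficking genes then had 16.7%, Mediator subunits 23.8% and aminoacyl-tRNA synthetases 20.8%. Translation initiation factors had 28.6%, chromatin regulators 31.4% and cytosolic ribosomal protein genes 73.6%.

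With both genes of a pair credited, other lists were near the 32.8% of all genes of divergent pairs. Mitochondrial ribosomal protein genes had 22 of 58 (37.9%), splicing genes 12 of 32 (37.5%) and RNA decay genes 6 of 16 (37.5%). Oxidative phosphorylation genes had 17 of 46 (37.0%), including the complex I genes ND-MWFE, whose peak was nearest TppII, and ND-ASHI. General transcription genes had 14 of 40 (35.0%), including the RNA polymerase II subunit gene Polr2B. Mitochondrial import genes had 3 of 6. DNA replication genes were lower with 6 of 24, including Mcm2 and RPA1, which face each other across 519 bp and share 1 peak. Proteasome genes had 5 of 26 (19.2%), including Rpn3 and, with its highest peak nearest Hat1, Rpn5. Cuticle protein genes had 0 of 13. Odorant and gustatory receptor genes had 1 of 26, the ionotropic receptor gene Ir60e, whose peak was nearest CG13585.

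Divergent and single-direction genes of the same function were compared by the same count, which credits both genes of a pair. Of the mitochondrial ribosomal protein genes, 37.9% ± 3.45 of the divergent and 6.67% ± 6.67 of the 15 single-direction ones had a peak in the replicates (SD, n = 3). For oxidative phosphorylation genes the values were 37.7% ± 1.26 of 46 and 7.75% ± 2.69 of 43, and for vesicle trafficking genes 41.7% ± 5.01 of 72 and 13.8% ± 4.53 of 46. Cytosolic ribosomal protein genes were high in both settings, at 74.8% ± 4.75 of 53 and 60.6% ± 3.03 of 33. The 14 lists other than cuticle proteins and receptors together gave 41.7% ± 2.18 of 490 divergent and 17.3% ± 0.548 of 279 single-direction genes. That difference was 24.4 ± 2.70 percentage points (exact permutation p = 0.25, the smallest possible). Genes outside the 16 lists gave 31.1% ± 0.982 and 9.53% ± 0.293. With a peak credited only to the gene of the nearest TSS, an alternative added after seeing the data, the divergent share of the 14 lists fell to 25.2% ± 1.33 and the difference to 7.91 ± 1.87 percentage points (exact permutation p = 0.25). The divergent share was then 16.1% ± 1.99 for mitochondrial ribosomal protein genes, 25.4% ± 1.26 for oxidative phosphorylation genes, 17.6% ± 2.12 for vesicle trafficking genes and 68.6% ± 5.45 for cytosolic ribosomal protein genes. It fell below the single-direction share for general transcription genes, at 10.8% ± 6.29 against 19.0% ± 4.76, and for Mediator subunits, at 20.6% ± 2.75 against 25%. The lists differ in how often their genes are divergent, from 10.8% of cuticle protein genes to 84.2% of splicing genes.

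**Figure D5:**
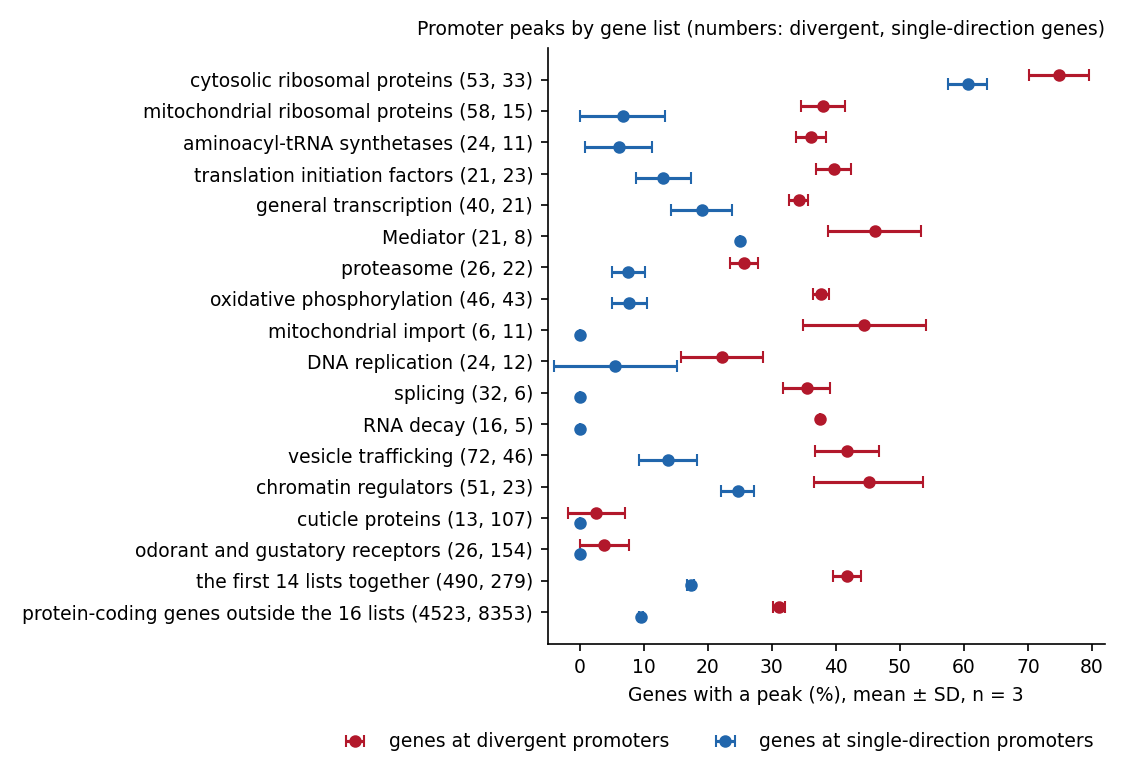
Percent of genes with a peak (horizontal axis) at divergent promoters (red) and at single-direction promoters (blue) for each gene list (vertical axis, with the numbers of divergent and single-direction genes). Both genes of a pair are credited with its peak. Points are means of 3 replicates and bars SD. Divergent genes lie higher in the 14 lists other than cuticle proteins and receptors, and both kinds are near 0 for cuticle proteins and receptors.

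The DNA at the summits was rich in A and T. In the central 100 bp GC content was 33.9%, 33.3% and 34.9% at divergent promoters in the 3 replicates and 35.3%, 34.7% and 36.5% at single-direction promoters, a difference of −1.48 ± 0.144 percentage points (SD, n = 3; exact permutation p = 0.25). Around the optimal summits it climbed from 33.3% beside the summit to 48.7% and 48.6% at 450 to 500 bp on either side, and at single-direction promoters from 34.8% to 43.7% and 42.9%. Pairs with a peak had a midpoint GC content of 30.0%, and pairs without an optimal summit 34.6%. By distance the values with and without a peak were 45.2% and 44.1% at up to 100 bp, 37.2% and 39.6% at 100 to 200 bp, 25.7% and 30.0% at 200 to 300 bp, 26.8% and 29.6% at 300 to 500 bp, and 30.4% and 33.5% at 500 to 1000 bp. The windows of the shortest class reach into the transcribed genes.

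Short motifs were then counted in the central 100 bp, on both strands. The DRE was searched as TATCGATA, and its part CGATA was counted on its own, so each DRE also counts there. The core of the M1BP site was searched as GGTCACAC. The E-box, a site of many helix-loop-helix proteins, was searched as CAGCTG. For the promoter element named after the sequence, the TATA box, TATAAA was used. Elements of the GAGA factor were searched as GAGAG in either direction. The last motif, an AT-rich word, was ATTTAAAA. At divergent summits 5.15%, 5.04% and 5.38% held a DRE in the 3 replicates, and at single-direction summits 2.00%, 2.43% and 2.78%. CGATA was at 26.2% ± 0.435 and 20.9% ± 0.311 (SD, n = 3). GAGAG went the other way, with 6.55% ± 1.20 and 9.96% ± 0.757. The E-box was at 5.39% ± 0.513 and 3.98% ± 0.564, the TATA box at 23.4% ± 0.776 and 19.7% ± 0.628, ATTTAAAA at 7.23% ± 0.521 and 6.34% ± 0.185 and the M1BP core at 1.80% ± 0.546 and 2.09% ± 0.327. The replicate values of the promoter kinds overlapped for the M1BP core and for no other of the 7 motifs, whose two-sided exact permutation p was 0.25, the smallest possible.

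At the midpoints of divergent pairs, taken over all distances, the DRE was no more frequent with a peak than without. A midpoint window can miss the summit, which lay a median of 243.5 bp away in pairs 500 to 1000 bp apart. At the member summits themselves 51 of 859 (5.94%) held a DRE. The midpoints of all 3002 divergent TSS pairs held a DRE in 4.53% of cases and CGATA in 23.5%. Pairs without an optimal summit had a DRE in 5.05%, and pairs with a peak in 3.79%. In pairs up to 100 bp apart a DRE was at 18.7% of midpoints with a peak and 20.6% without, and in pairs 200 to 300 bp apart at 0.426% and 1.23%. In pairs 300 to 500 bp apart the order was the other way, at 2.40% and 1.31%, and in pairs 100 to 200 bp apart too, with 9 of 80 midpoints against 18 of 274. In pairs 500 to 1000 bp apart it was at 0 of 151 midpoints with a peak and at 7 of 608 without. CGATA was at 18.8% of all midpoints with a peak and 25.3% of those without, whereas at the summits it was more frequent at divergent than at single-direction promoters. The E-box, M1BP core and GAGAG were also less frequent at midpoints with a peak (4.55%, 0.885% and 6.95%) than without (7.27%, 3.18% and 8.08%). The TATA box and ATTTAAAA were more frequent, at 29.2% and 7.71% against 21.7% and 7.53%. Upstream windows of single-direction TSS without a summit held a DRE in 0.605% of 11908 cases, and peaks away from promoters in 0.268% of 1863. Within 500 bp of member summits, 47 and 66 DREs lay in the first 100 bp on either side and 49 and 54 in the next 100 bp, with 5 to 19 in each 100 bp farther out. A match shows that these letters are present, and says nothing of DREF binding.

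The share of pairs with a peak differed between chromosomes. In the replicates it was 24.2% ± 2.45 of 403 pairs on X, 28.5% ± 3.17 of 543 on 2R, 30.3% ± 1.38 of 509 on 2L, 34.6% ± 1.07 of 518 on 3L and 36.3% ± 1.40 of 683 on 3R (SD, n = 3). All values of X were below all values of 3L and 3R, while X and 2R overlapped. Single-direction genes showed no such order, with 10.6% ± 0.536 on X and 9.16% ± 0.515 on 3R. The embryos were of both sexes, so X was present in fewer copies than the other arms, and its part in this was not tested. On chromosome 4, 1 of 11 pairs had a peak in the optimal list.

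At the edges of the rule few peaks were decided by a small margin. Only 1 member, of optimal rank 991, had its summit more than 450 bp from the TSS, and 4 peaks of median rank 1774.5 lay just outside, up to 550 bp away. Start sites were more than 900 bp apart for 21 members of median rank 2408, and 22 peaks of median rank 2382 just outside had them up to 1100 bp apart. Another optimal summit was found within 5 kb of 47.1% of members and 47.5% of single-direction peaks.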

How the data were processed

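The 3 replicates of whole embryos were each represented by a relaxed narrowPeak list, with a relaxed and an optimal list from pooled replicates, per the file names and labels. The deposited listing names 1 control dataset for all calls. No source used here gives the peak caller, aligner or cut-offs, and depth is unknown. The deposited signal value is the authors' score of unstated scale and only ranked peaks within a list. The deposited summit offset in bp gave each summit.

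Coordinates are 1-based on dm6. Start sites of protein-coding transcripts (19253, of which 6036 were divergent) came from Ensembl release 115 on X, 2L, 2R, 3L, 3R and 4, and sequence from RefSeq. Positions of lists in the dm3 build were not used. Only the 3754 peaks of highest signal were kept from a replicate, unless the whole list or the highest 1000 is named. Ranks and summit displacements came from the whole replicate lists, over peaks with a summit within 100 bp there. Summits within 100 bp were called shared. A gene counted as divergent if any of its start sites was. Means and SDs are over 3 replicates, and differences were tested by two-sided exact sign-flip permutation, which cannot go below p = 0.25. No p can therefore pass 0.05, and it rests only on the signs and relative sizes of the differences in these 3 samples.

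The members and the 16 gene lists, matched by gene symbol, were chosen with earlier results of these data known. The symbol patterns of the cuticle protein, RNA decay and general transcription lists were narrowed after results were seen, to drop genes of other function. Named peaks were the 12 lowest mean ranks among members with a summit within 100 bp in every whole replicate list, the highest in each distance class and up to 3 genes per list. The scripts were tested on simulated data. The tools were Python 3.11.15, scipy 1.17.1, matplotlib 3.10.9, pandas 2.3.3 and numpy 2.4.6.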

Additional observations from a re-analysis of the deposited data

How the results depend on the processing

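Of the comparisons, the excess of divergent pairs with a peak and the lower GC content of divergent summits kept their direction under every alternative run, at 7.55 to 29.6 and −2.59 to −0.900 percentage points. The share of promoter peaks at divergent promoters was set by the rule: 53.6% with summits within 250 bp of a TSS, 40.5% within 1000 bp, 35.4% with the opposite TSS within 500 bp, 48.6% with gene 5′ ends only, 45.5% in the highest 1000 peaks and 30.9% in the whole relaxed lists. Summits between the TSS were 78.1% within 1000 bp and 76.1% with gene 5′ ends. The highest 1000 peaks held 276 members. The recovery difference was −6.51 percentage points there, each replicate list being cut to its highest 1000 as well. It was −1.80 in the whole lists, and −0.364 to 1.59 when each replicate was left out in turn. The median rank difference was 12.7 in the highest 1000, −201 with the opposite TSS within 500 bp, −151 with summits within 1000 bp of a TSS, −135 with gene 5′ ends and −139 to −4.50 with each replicate left out. The displacement difference was 0 bp with the opposite TSS within 500 bp and with gene 5′ ends, and −0.5 to 1.5 bp with each replicate left out. The density ratio was 4.51 over bases 1 to 150 upstream, and the gene share difference fell from 22.4 to 7.40 percentage points when a peak counted only for the gene of its nearest TSS, both alternatives chosen after seeing the data. In 200 bp windows every motif share was higher, such as 10.4% for the DRE, since the window is longer. The cause of the other changes was not tested. The optimal list could not be rebuilt without a replicate, so the number of members has no such value. Differences were taken within each replicate. No paired analysis was possible between groups because the samples form 1 group. The unknown depth limits any statement about sites without a peak.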
